A study of Homo sapiens with 7 samples.

Results

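Solute carriers are membrane proteins that move amino acids, sugars, ions, metals, lipids and nucleotides across the plasma membrane and the membranes of organelles. They are numbered by family, and the family largely sets the cargo. In the liver they supply amino acids and glucose for protein synthesis and energy, and in cells with a stressed endoplasmic reticulum several amino acid carriers are known targets of the transcription factor ATF4. Super-enhancers (SEs) are clusters of closely spaced enhancers, stitched into 1 region and ranked by their load of H3K27ac, the acetylation of histone H3 at lysine 27 found at active enhancers and promoters.

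HepG2, an established human liver cancer cell line, was treated with tunicamycin (TM), which blocks N-linked glycosylation and so provokes endoplasmic reticulum stress (ERS), or with the solvent DMSO, and H3K27ac was measured by ChIP-seq in 3 libraries of each (TM 1 to TM 3 and DMSO 1 to DMSO 3). No other agent or allele distinguished the groups, and no source used here gives the dose or duration of TM for these libraries. Each library has a table of its SEs with the position, the nearest gene and a summed H3K27ac signal, and only regions above a library threshold are listed. Whether replicates were separate cultures is not stated, and p-values then reflect library-to-library spread alone. The SEs described here are all those whose nearest gene, as deposited, has a symbol starting with SLC and a digit, apart from SLC3A2, SLC7A11 and SLC35B4. These 3 genes were linked in 3, 3 and 0 TM libraries and in 0, 3 and 3 DMSO libraries.

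The rule found 101 of 7472 SEs (1.35%), linked to 28 of 2002 linked genes. Joined where SEs of different libraries shared at least 1 bp, they formed 32 of 1784 merged regions. TM 1, TM 2 and TM 3 listed 11, 20 and 15 of them (0.973%, 1.33% and 1.20% of the list), and the DMSO libraries, in the same numbering, 18, 20 and 17 (1.59%, 1.55% and 1.47%). All 3 TM shares lay below all 3 DMSO shares, with means of 1.17 ± 0.181% in TM and 1.54 ± 0.0611% in DMSO (SD, n = 3 each). Of 383 protein-coding solute carrier genes in RefSeq, the 3 set apart above not counted, 27 (7.05%) were linked to an SE in some library. Of all 20052 protein-coding genes, 7.31% were. The 27 were counted by deposited name and all genes by current symbol. The linked genes MFSD14A and TMEM241, now SLC71A1 and SLC35D4, are therefore not among the 27. By group these shares were 5.22% of solute carriers and 5.89% of all genes in TM, and 5.74% and 5.39% in DMSO. By these counts, the share of solute carriers linked to an SE was close to that of all genes. The 3 genes set apart were all linked in some library, so leaving them out lowers the solute carrier shares.

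Facts of the whole lists bear on every value. Lists held 1130 to 1507 SEs in TM and 1132 to 1290 in DMSO, and the lowest listed signal, the threshold, was 18282, 26265 and 18884 in the TM libraries (in replicate order, as throughout) and 24793, 16747 and 24383 in the DMSO libraries. The unit of signal is not stated, and read totals are unknown. TM 2 had the longest list, the highest threshold and the highest median density (signal per bp) over regions called in all libraries, and DMSO 2 had the lowest threshold and the lowest such density. The labelled cell type was checked against marker genes. Of 23 hepatocyte genes, only FOXA1 was linked, in 0 TM and 2 DMSO libraries, and ALB, APOA1 and HNF4A were not linked in any. Of 14 mesenchymal or other epithelial genes, PDGFRB, KRT7, KRT80 and TP63 were linked, and of 7 immune and endothelial genes, PTPRC, in 2 TM and 0 DMSO libraries. The part of any of this in the solute carrier results was not tested.

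The library medians of solute carrier SEs averaged shorter and denser in TM than in DMSO, but those of TM and DMSO libraries overlapped for both length and density. They had a median length of 43.5 ± 8.83 kb in TM, against 53.6 ± 7.32 kb in DMSO, where all SEs had 40.9 ± 3.00 kb in TM and 59.3 ± 7.55 kb in DMSO (mean of library medians ± SD, n = 3 each). Their median density was 0.810 ± 0.122 in TM and 0.660 ± 0.0646 in DMSO, and that of all SEs 0.918 ± 0.161 in TM and 0.658 ± 0.0687 in DMSO. The typical member stood in the lower part of its list, at a median rank of 54.5 ± 3.44% of the list from the top in TM and 63.3 ± 3.60% in DMSO. Of the 101 SEs, 59 (58.4%) extended over the start site of their linked gene, against 65.2% of all SEs. The midpoint lay in an intron for 55, between genes for 41, in an exon or UTR for 4 and at a promoter for 1. It lay inside the linked gene for 40, inside another gene for 20, and over 100 kb from the start site for 13 (12.9%, against 12.1% of all SEs). A link is thus a statement of distance, and for SLC8A3 (midpoints in SMOC1), SLC25A17 (in ST13), SLC7A4 (in P2RX6), SLC50A1 (in EFNA1) and SLC2A1-AS1 (in SLC2A1) the SE was centred within another gene.

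The promoters of SLC7A6, SLC50A1, SLC6A9 and SLC22A15 are printed because an SE extended over them and their results are described below. Each is the stretch of 250 bases before a RefSeq start site on GRCh38.p14, 5′ to 3′ on the strand of the gene, and capitals mark TGACGTGG or its reverse complement, the unfolded protein response element (UPRE) bound by XBP1 and ATF6. SLC7A6 (chr16:68264276-68264575, plus strand) and SLC50A1 (chr1:155135125-155135424, plus strand) each hold the element, 29 to 22 and 52 to 45 bases before the start. Another RefSeq promoter of SLC50A1 (chr1:155135602-155135901, not printed), also covered by SEs, does not hold it. SLC6A9 (chr1:44031413-44031712, minus strand) and SLC22A15 (chr1:115976263-115976562, plus strand) do not hold these letters. The intervals given include 50 bases after the start that are not printed.
SLC7A6: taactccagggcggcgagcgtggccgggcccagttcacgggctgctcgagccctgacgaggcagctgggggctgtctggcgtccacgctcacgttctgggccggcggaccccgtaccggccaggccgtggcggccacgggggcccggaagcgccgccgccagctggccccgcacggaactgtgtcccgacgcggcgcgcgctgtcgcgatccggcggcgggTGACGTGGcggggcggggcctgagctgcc
SLC50A1: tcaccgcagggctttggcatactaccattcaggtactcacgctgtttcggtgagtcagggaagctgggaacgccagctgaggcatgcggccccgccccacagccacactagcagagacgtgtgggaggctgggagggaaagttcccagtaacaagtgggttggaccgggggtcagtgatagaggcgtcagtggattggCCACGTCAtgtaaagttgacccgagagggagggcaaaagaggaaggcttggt
SLC6A9: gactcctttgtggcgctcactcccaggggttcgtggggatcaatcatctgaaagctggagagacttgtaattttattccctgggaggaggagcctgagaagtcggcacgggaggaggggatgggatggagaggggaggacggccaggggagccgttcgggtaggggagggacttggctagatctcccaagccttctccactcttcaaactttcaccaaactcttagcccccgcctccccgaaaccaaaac
SLC22A15: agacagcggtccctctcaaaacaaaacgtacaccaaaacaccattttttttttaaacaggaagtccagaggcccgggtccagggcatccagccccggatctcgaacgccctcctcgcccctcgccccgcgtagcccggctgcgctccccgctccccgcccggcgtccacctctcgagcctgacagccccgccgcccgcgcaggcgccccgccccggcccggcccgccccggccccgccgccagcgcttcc

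RefSeq promoters of 300 bases (250 before and 50 after the start) were found for 23 of the 28 genes, 38 promoters in all. Searched on both strands, the UPRE stood in 3 of them (SLC7A6, SLC50A1 and SLC7A8) and in 256 of 35116 promoters (0.729%) overall. The longer ER stress response element (ERSE) stood in 0 of 38 and in 27 overall (0.0769%). The C/EBP-ATF response element, searched as TGATGNAAN, stood in 2 (SLC1A3 and SLC11A2) and in 1268 overall (3.61%). A match describes letters in a window and does not show that a factor was bound.

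By linked gene, 7 of the 28 were listed in all 6 libraries, namely SLC1A3, SLC38A4, SLC43A3, SLC8A3, SLC25A36, SLC35F6 and SLC2A1-AS1 (26.1% of all linked genes were). SLC9A8 was linked in 3 TM and 0 DMSO libraries, a pattern of 6.94% of all linked genes. SLC6A9 was linked in 0 TM and 3 DMSO libraries, a pattern of 4.70%. Another 4 were linked in 1 or 2 TM libraries only (SLC22A15, SLC27A1, SLC50A1 and SLC7A4) and 6 in 1 DMSO library only (SLC11A2, SLC28A1, SLC38A9, SLC48A1, SLC5A3 and SLC7A8). The remaining 9 were linked in both groups, though not in every library. In all, 5 genes were linked in TM alone and 7 in DMSO alone, where 27.3% and 19.7% of all linked genes were. Of all 2002 linked genes, 523 were linked in all 6 libraries, 547 in TM alone and 394 in DMSO alone. The rest of the 2002 had the pattern of the 9.

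The count by merged region differed, since the nearest gene of a region could change with its extent. Of the 32 regions, 12 were called in all 6 libraries (37.6% of all merged regions), 1 in every TM library and no DMSO library (7.57%), and 2 in no TM library and every DMSO library (5.44%). A further 3 were called in fewer TM libraries only (17.0%) and 4 in fewer DMSO libraries only (11.9%). The remaining 10 were called in both groups but not in every library. Of all 1784 merged regions, 670 were called in all 6 libraries. Another 135 and 97 were called in every library of TM or DMSO alone, and 303 and 213 in fewer. The rest of the 1784 had the pattern of the 10. The single TM-only region was that of SLC7A4 and P2RX6, and the DMSO-only regions were at SLC6A9 and at a distal site of SLC38A4. These sets changed with single libraries. Without TM 1 the SLC7A4 name was lost, and the 1 TM-only region was that of SLC22A15 instead. Without TM 2, SLC39A10 and SLC14A2 made 4 DMSO-only regions. Without DMSO 2, SLC50A1 made 2 TM-only regions and SLC5A3 made 3 DMSO-only regions. In 13 of the 32 (40.6%), another gene was named in some library, against 17.5% of all merged regions. A region enters the 32 through any 1 of its names, so regions with several names enter more readily. No TM-only or DMSO-only region remained when only SEs above the highest of the 6 thresholds were kept.

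**Figure D1:**
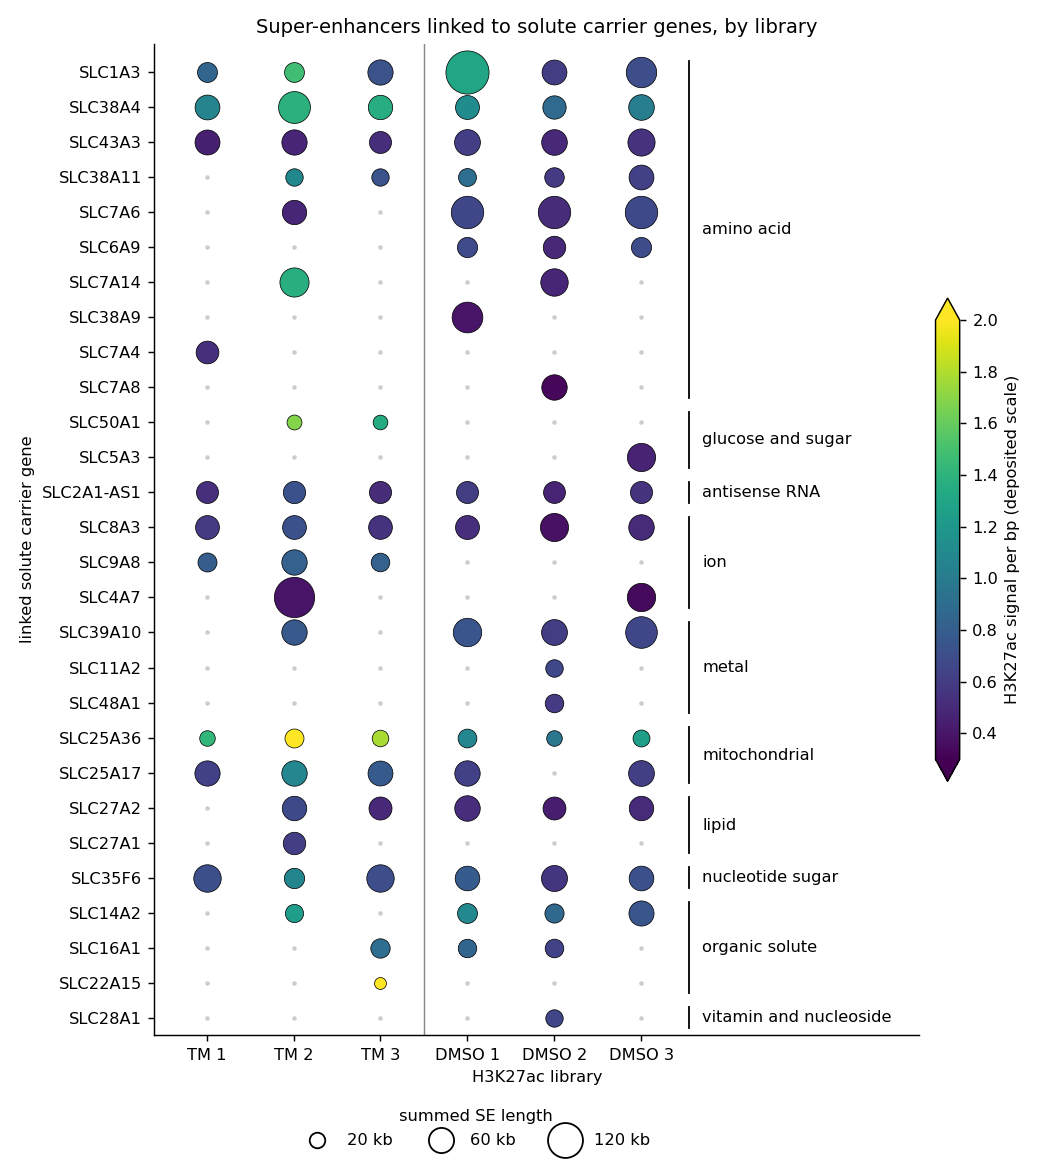
Each row is a linked solute carrier gene, grouped by transporter class, and each column a library, TM left of DMSO. Circle area grows with the summed length of the SEs linked to the gene in that library (kb) and colour gives signal per bp, while a small grey dot marks a library with no SE of that name. SLC9A8 has circles in the 3 TM columns only and SLC6A9 in the 3 DMSO columns only, and 7 rows are filled across all 6 columns.

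Amino acid carriers were the most numerous class, with 10 of 68 RefSeq genes linked, 7 in TM, 9 in DMSO and 6 in both. SLC1A3, a glutamate transporter also called EAAT1, had the strongest SE of any solute carrier, and SLC38A4, a sodium-coupled carrier of neutral amino acids abundant in liver, had 3 separate regions. SLC6A9, a glycine transporter, was linked in DMSO alone. SLC7A6, a subunit of an exchanger of cationic and neutral amino acids, had long SEs in DMSO and short ones or none in TM.

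An upstream region, shorter in TM, and an intragenic region were linked to SLC1A3. Of the 7 SEs in the upstream region (chr5:36338718-36510062 as deposited), only 1, in DMSO 1, was named SLC1A3. The others, found in all 6 libraries, were named RANBP3L. The region measured 46.0, 48.9 and 48.3 kb in the TM libraries, against 149, 163 and 171 kb in the DMSO libraries. Its summed signal was 77126, 128741 and 88085 in TM and 223759, 182623 and 230800 in DMSO. Every TM library was shorter and had less summed signal, and its peaks numbered 2 to 6 in TM and 19 to 25 in DMSO. The DMSO 1 part named SLC1A3 was centred 146 kb before the start site, carried a signal of 178989 and ranked 32 of 1132. Over the whole region, summed signal fell by 1.14 ± 0.0729 in log2 units (estimate ± standard error, as for all differences here, with an adjusted p of 0.000234 from limma). For this and every summed-signal difference below, each library was first centred on its median over the regions called in all 6 libraries. The log2 length differed by -1.75, with p = 0.1 in a two-sided exact permutation test, which can go no lower with 3 libraries a group. Density ran the other way, at 1.68, 2.64 and 1.82 in TM and 1.50, 1.12 and 1.35 in DMSO, with a difference of +0.23 ± 0.13 after centring (adjusted p = 0.273).

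The intragenic SLC1A3 region (chr5:36604890-36695164) was named SLC1A3 in all 6 libraries. It spanned 35.8, 35.6 and 60.6 kb in TM, against 89.2, 58.5 and 90.1 kb in DMSO, so that TM 3 overlapped DMSO 2 (log2 difference -0.87, exact permutation p = 0.2). In DMSO 1 and DMSO 3 the SE extended back over the start site, which no TM library did. Its density of 0.847, 1.48 and 0.727 in TM and 0.706, 0.605 and 0.705 in DMSO gave +0.15 ± 0.17 (limma, adjusted p = 0.567).

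SLC38A4 held 12 member SEs, more than any other gene, and its 3 regions behaved differently. An intragenic region (chr12:47159563-47186254) was called in all 6 libraries with 21.5, 22.1 and 21.8 kb in TM and 23.9, 24.8 and 24.4 kb in DMSO. It had the highest density of any solute carrier SE, 2.36 in TM 2, with 1.11 and 1.42 in TM 1 and TM 3 and 1.20, 0.898 and 1.13 in DMSO 1 to DMSO 3. Its centred density differed by +0.16 ± 0.17 (limma, adjusted p = 0.542), while its centred summed signal rose by +0.38 ± 0.10 (adjusted p = 0.0300). As deposited, the signals overlapped, at 23827, 52115 and 31059 in TM and 28589, 22273 and 27660 in DMSO.

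A distal SLC38A4 region beyond the end of the gene, centred 156 to 162 kb from the start site (chr12:47042675-47082400), was listed in DMSO only. It had no SE in any TM library, against 29.9, 26.2 and 38.0 kb with signals of 31276, 22500 and 35493 in DMSO 1 to DMSO 3. The weakest DMSO signal was 0.857 of the highest TM threshold on the deposited scale and 1.51 of it once libraries were scaled to the same density of shared regions. The lists therefore do not settle whether TM cells had less H3K27ac there.

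The third region lay upstream of SLC38A4 (chr12:47297582-47429632) and took the name SLC38A4 in every TM library and PCED1B in every DMSO library, and such a lack of any common name between the groups was found at 1.19% of 670 shared regions. Its SEs were 36.8, 77.2 and 34.2 kb in TM and 132, 94.7 and 92.9 kb in DMSO, shorter in every TM library (exact permutation p = 0.1). Summed signal fell by 0.72 ± 0.15 in log2 units (limma, adjusted p = 0.0149), and centred density differed by +0.09 ± 0.15 (adjusted p = 0.709). A name count would give SLC38A4 2 SEs per library in both groups, although the places were not the same. Next to them, an antisense RNA gene of SLC38A4 (LOC100288798 as deposited) was covered by 3 or 4 SEs totalling 113 to 144 kb in TM libraries and by a single SE of 201 to 236 kb in each DMSO library.

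**Figure D2:**
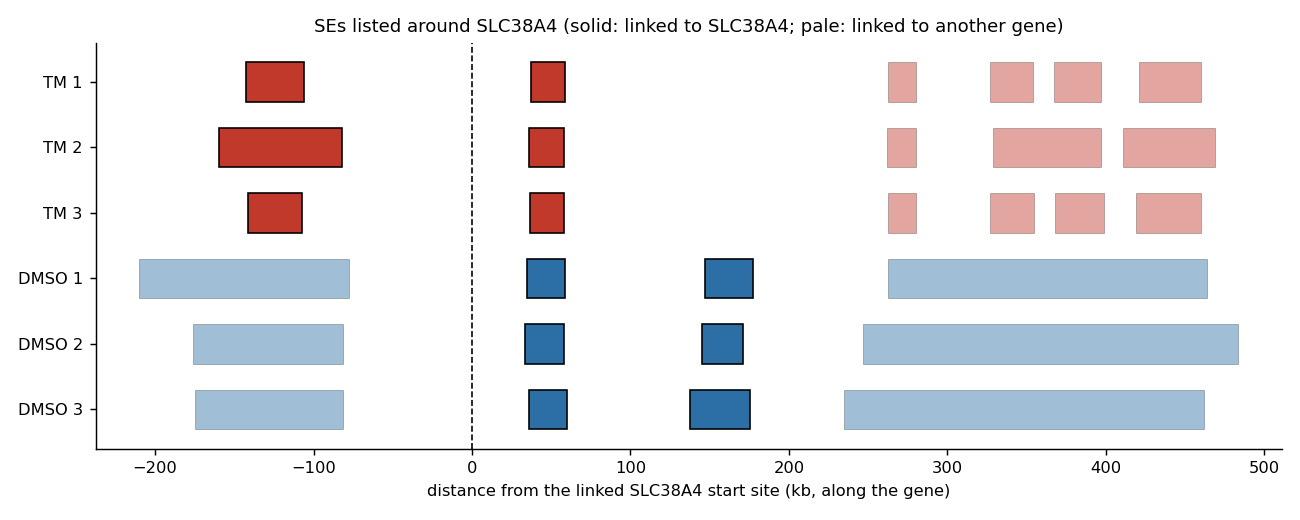
Horizontal bars give the extent of each SE listed around SLC38A4, by library, TM above DMSO, as distance from its start site in kb along the gene (dashed line at 0). Solid bars are linked to SLC38A4 and pale bars to another gene. The bars centred 156 to 162 kb from the start are present in the 3 DMSO libraries only, and the upstream bars change name between the groups.

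Among the carriers described here, SLC6A9 was the only one linked in no TM library and every DMSO library. SLC35B4, set apart at the start, had the same pattern. Its SE (chr1:44490068-44537259) extended over the start site and had signals of 25123, 22891 and 25136 and densities of 0.679, 0.488 and 0.686 in DMSO 1 to DMSO 3. These SEs ranked low, at 99.2%, 64.9% and 96.9% of their lists. As deposited, the weakest was 0.872 of the highest TM threshold. With the weakest taken anew after each scaling, the ratio was 1.37 by density and 0.960 by total signal of shared regions. No TM value exists for this region.

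SLC7A6 gave the widest contrast among carriers not called everywhere. Its region (chr16:68268487-68371966) was 37.3 kb in TM 1, where the SE was named PLA2G15, 55.9 kb in TM 2 and unlisted in TM 3, against 103 kb in each of DMSO 1 to DMSO 3. Signals were 18710 and 26892 in TM 1 and TM 2 and 68276, 52502 and 69351 in DMSO. Both TM signals were barely listed, with thresholds of 18282 and 26265 and ranks at 96.7% and 97.6% of their lists. The SE ended 8.12 and 26.0 kb after the start site in TM 1 and TM 2 and 73.0 to 73.5 kb after it in DMSO. Density as deposited was 0.5015 and 0.4812 in TM 1 and TM 2 and 0.6636, 0.5117 and 0.6741 in DMSO, so DMSO 2 lay close to TM 1. Across 832 regions called by at least 2 libraries of each group, with TM 3 missing here, its centred density fell by 0.71 ± 0.16 in log2 units (limma, adjusted p = 0.0237), where 11.8% of regions fell and 6.85% rose. This call was not refitted without centring or with a library left out.

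SLC43A3 belongs to an amino acid family but is known to carry nucleobases. Its density was 0.453, 0.479 and 0.525 in TM and 0.606, 0.491 and 0.544 in DMSO. These raw values overlapped, but after each library was centred on its median over 670 shared regions, all 3 TM values lay below all 3 DMSO values. That held at 21.5% of the 670. Centred density fell by 0.55 ± 0.12 in log2 units (limma, adjusted p = 0.0185). The call was lost without centring (-0.17, adjusted p = 0.543), without DMSO 1 (adjusted p = 0.0667) and without DMSO 2 (adjusted p = 0.0532).

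A region far upstream of SLC7A14, a lysosomal member of the cationic amino acid family, had the greatest rise in density of the 12 shared regions. It lay 134 to 138 kb from the start site (chr3:170396671-170478887) and was named SLC7A14 in TM 2 and DMSO 2 but RPL22L1, a ribosomal protein paralog, in the other 4 libraries. Density was 1.01, 1.37 and 1.14 in TM and 0.739, 0.481 and 0.671 in DMSO, with no overlap. Centred density rose by +0.52 ± 0.12 and summed signal by +0.99 ± 0.21 (limma, adjusted p = 0.0185 and 0.0131). The adjusted p of the density was 0.0519 without TM 3, 0.0790 without DMSO 2 and 0.0596 without DMSO 3.

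The other amino acid carriers were called less often. SLC38A11, of the same family as SLC38A4, was linked in 2 TM libraries (26.4 and 26.3 kb) and in 3 DMSO libraries (28.2, 34.3 and 58.2 kb), with a density difference of -0.14 ± 0.17 over the 5 libraries (limma, adjusted p = 0.606). SLC7A4 gave its name to an SE in TM 1 only. The same region (chr22:21354553-21402888), named P2RX6 after an ATP-gated ion channel in TM 2 and TM 3, had signals of 25859, 32224 and 25331 in the TM libraries and was unlisted in DMSO. Its weakest TM signal was 1.02 of the highest DMSO threshold as deposited and 0.844 of it after scaling by density. SLC38A9, a lysosomal arginine sensor, was linked in DMSO 1 only, by an SE of 91.8 kb with a density of 0.393, and SLC7A8, a neutral amino acid exchanger, in DMSO 2 only.

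Glucose and sugar carriers were few, with 2 of 36 genes linked, and neither was linked in both groups. SLC50A1, a sugar transporter of the Golgi, was linked in TM 2 and TM 3. Its region had densities of 1.24, 1.68 and 1.35 in TM 1 to TM 3, and was named EFNA1, an ephrin ligand, in TM 1. In DMSO it was listed in DMSO 2 only, again as EFNA1, with a density of 0.699. SLC5A3, the sodium-coupled myo-inositol transporter, was linked in DMSO 3 (76.6 kb, density 0.466), and DMSO 1 listed an SE of 69.1 kb there under MRPS6, a mitochondrial ribosomal protein gene that overlaps it.

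SLC2A1, the basal glucose transporter GLUT1, was not itself a linked name, but the neighbouring transcript SLC2A1-AS1 (SLC2A1-DT in current RefSeq) was, in all 6 libraries. This SE (chr1:43388376-43434844) was centred inside SLC2A1 and varied little in extent, at 44.7, 46.0 and 45.2 kb in TM and 44.9, 44.1 and 45.2 kb in DMSO. Density was 0.527, 0.721 and 0.507 in TM and 0.601, 0.470 and 0.550 in DMSO. After centring, every TM value was below every DMSO value, as at 21.5% of shared regions. The difference of -0.28 ± 0.10 did not pass the threshold (limma, adjusted p = 0.0872) and was +0.10 without centring.

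Among ion carriers, 3 of 58 genes were linked, all of them in TM and 2 in DMSO. Among the carriers described here, only SLC9A8, a sodium-proton exchanger of the Golgi, was linked in every TM library and no DMSO library. SLC3A2, set apart at the start, had the same pattern. SLC9A8 lay in a region shared by both groups. The TM SEs named SLC9A8 measured 32.3, 61.2 and 30.8 kb, with signals of 25832, 50165 and 25309 and densities of 0.800, 0.819 and 0.822. The region was nevertheless called in all DMSO libraries (chr20:48247724-48463501). There it formed a single SE of 175, 188 and 216 kb named B4GALT5, a galactosyltransferase of the Golgi, where each TM library listed 2 SEs totalling 99.1, 128 and 109 kb. Summed signal of the merged region fell by 0.49 ± 0.0761 in log2 units (limma, adjusted p = 0.00422) and centred density differed by -0.09 ± 0.0997 (adjusted p = 0.550). The TM-only link of SLC9A8 therefore came with a split of the region and a change of nearest gene, not with signal in TM alone.

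SLC8A3, a sodium-calcium exchanger, was linked in all 6 libraries by a region in SMOC1, 72 to 85 kb from its start site (chr14:70424162-70501528). It spanned 53.4, 53.1 and 52.9 kb in TM and 53.9, 76.2 and 61.9 kb in DMSO, and its density 0.596, 0.722 and 0.549 in TM and 0.526, 0.374 and 0.501 in DMSO. Lengths did not overlap, though the gap to DMSO 1 was small, and centred density differed by +0.04 ± 0.11 (limma, adjusted p = 0.826). SLC4A7, a sodium-bicarbonate cotransporter, had the longest solute carrier SE, 111 kb in TM 2, with a density of only 0.324. It was also linked by an SE of 77.5 kb in DMSO 3, and TM 2 had a second one of 50.4 kb upstream.

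**Figure D3:**
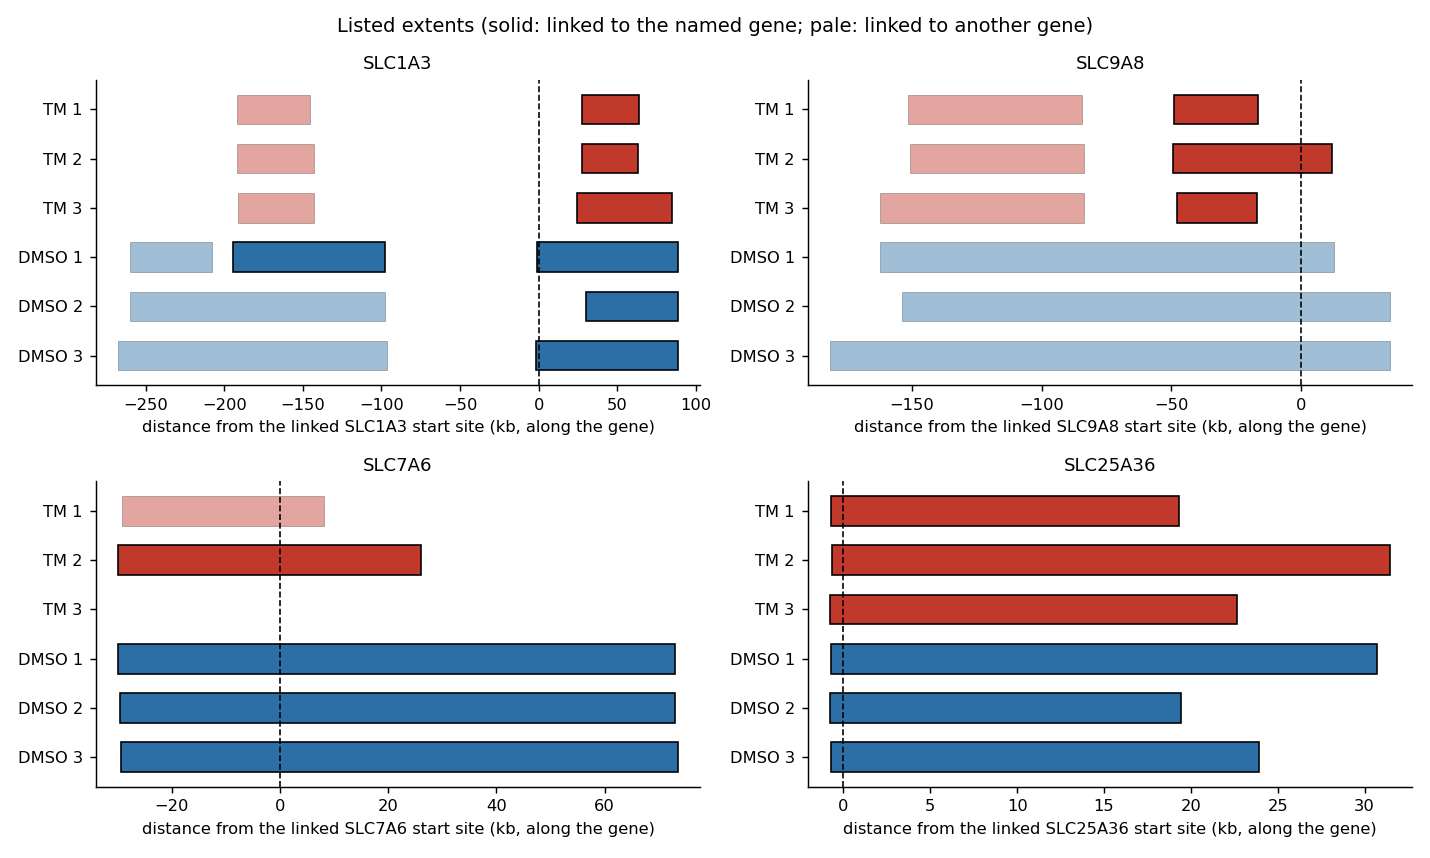
Extents of the SEs listed in the merged regions of SLC1A3, SLC9A8, SLC7A6 and SLC25A36, by library, TM above DMSO, as distance from the linked start site in kb (dashed line at 0). Solid bars carry the name of the gene and pale bars another name. At SLC9A8 the TM libraries show 2 bars and the DMSO libraries a single long one, and at SLC7A6 the bars reach 73 kb past the start in DMSO only.

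Mitochondrial carriers of family 25 were linked in 2 of 48 cases, both in both groups. SLC25A36, which imports pyrimidine nucleotides into mitochondria, had an SE that started at its promoter in every library (chr3:140659889-140692124). Its density was among the highest of the members, 1.42, 2.25 and 1.78 in TM against 1.08, 0.975 and 1.25 in DMSO, with no overlap. Nor did the groups overlap after centring, where 16.7% of shared regions were higher in every TM library. Centred density differed by +0.32 ± 0.13 (limma, adjusted p = 0.129) and centred summed signal rose by +0.69 ± 0.16 (adjusted p = 0.0173). As deposited, the signals overlapped, at 28549, 72176 and 41606 in TM and 33853, 19693 and 30851 in DMSO. Length did not separate the groups, at 20.1, 32.1 and 23.4 kb in TM and 31.4, 20.2 and 24.7 kb in DMSO.

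SLC25A17, a peroxisomal member of the same family, was linked in 3 TM libraries and in DMSO 1 and DMSO 3. The region (chr22:41192784-41256342) was also called in DMSO 2, as a shorter SE of 32.7 kb named MIR4766, and measured 58.8 to 61.4 kb in TM and 61.2 and 63.3 kb in the other DMSO libraries. Its density was 0.622, 1.08 and 0.772 in TM and 0.625, 0.570 and 0.615 in DMSO, with a centred difference of +0.03 ± 0.11 (limma, adjusted p = 0.847). Centred summed signal rose by +0.68 ± 0.17 (adjusted p = 0.0241), a value into which the shorter DMSO 2 extent enters. As deposited, the signals overlapped, at 37608, 66348 and 45426 in TM and 38245, 18654 and 38900 in DMSO.

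Metal carriers had 3 of 35 genes linked, 1 in TM and 3 in DMSO. SLC39A10, a zinc importer, was linked in TM 2 (61.5 kb, density 0.766) and in DMSO 1 to DMSO 3 (77.9, 63.5 and 97.7 kb, densities 0.743, 0.601 and 0.660), over 100 kb before its start site. SLC11A2, the iron importer DMT1, and SLC48A1, a heme transporter, were linked in DMSO 2 only, the library with the lowest threshold. The SLC48A1 region was listed under RAPGEF3 in 3 TM libraries and in DMSO 3.

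Lipid carriers had 2 of 11 genes linked, both in TM and 1 in DMSO. SLC27A2, a fatty acid transporter and very long chain acyl-CoA synthetase of the liver, was linked in TM 2 and TM 3 (densities 0.675 and 0.494) and in DMSO 1 to DMSO 3 (0.515, 0.438 and 0.506), with a centred difference of -0.25 ± 0.11 over 5 libraries (limma, adjusted p = 0.144). SLC27A1, its relative of muscle and fat, was linked in TM 2 only.

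Carriers of other organic solutes had 3 of 68 genes linked, 3 in TM and 2 in DMSO. SLC14A2, a urea transporter, was linked in TM 2 (29.2 kb, density 1.24) and in DMSO 1 to DMSO 3 (35.8, 33.0 and 59.8 kb, densities 1.10, 0.870 and 0.746). SLC16A1, the lactate and pyruvate transporter MCT1, was linked in TM 3 and in DMSO 1 and DMSO 2, and its region was listed in TM 2 and DMSO 3 under AKR7A2P1. Its centred density differed by +0.10 ± 0.16 (limma, adjusted p = 0.677). SLC22A15, an organic ion transporter, was linked in TM 3 by an SE of a single peak over its promoter, 9.76 kb long with a density of 2.12. TM 2 listed the same place under a neighbouring non-coding gene, with a density of 3.64, and no DMSO library listed it. The weaker TM signal was 0.836 of the highest DMSO threshold as deposited and 0.691 of it after scaling by density. After scaling by total signal of shared regions, the ratio was 1.04.

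Nucleotide sugar and nucleoside carriers had a single gene each. SLC35F6, of the nucleotide sugar family, was called in all 6 libraries over its start site (chr2:26930862-27010364), with densities of 0.712, 1.07 and 0.701 in TM and 0.787, 0.560 and 0.718 in DMSO and a centred difference of -0.13 ± 0.12 (limma, adjusted p = 0.467). SLC28A1, a concentrative nucleoside transporter, was linked in DMSO 2 only, and TM 1 listed an SE that overlapped it under PDE8A.

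**Figure D4:**
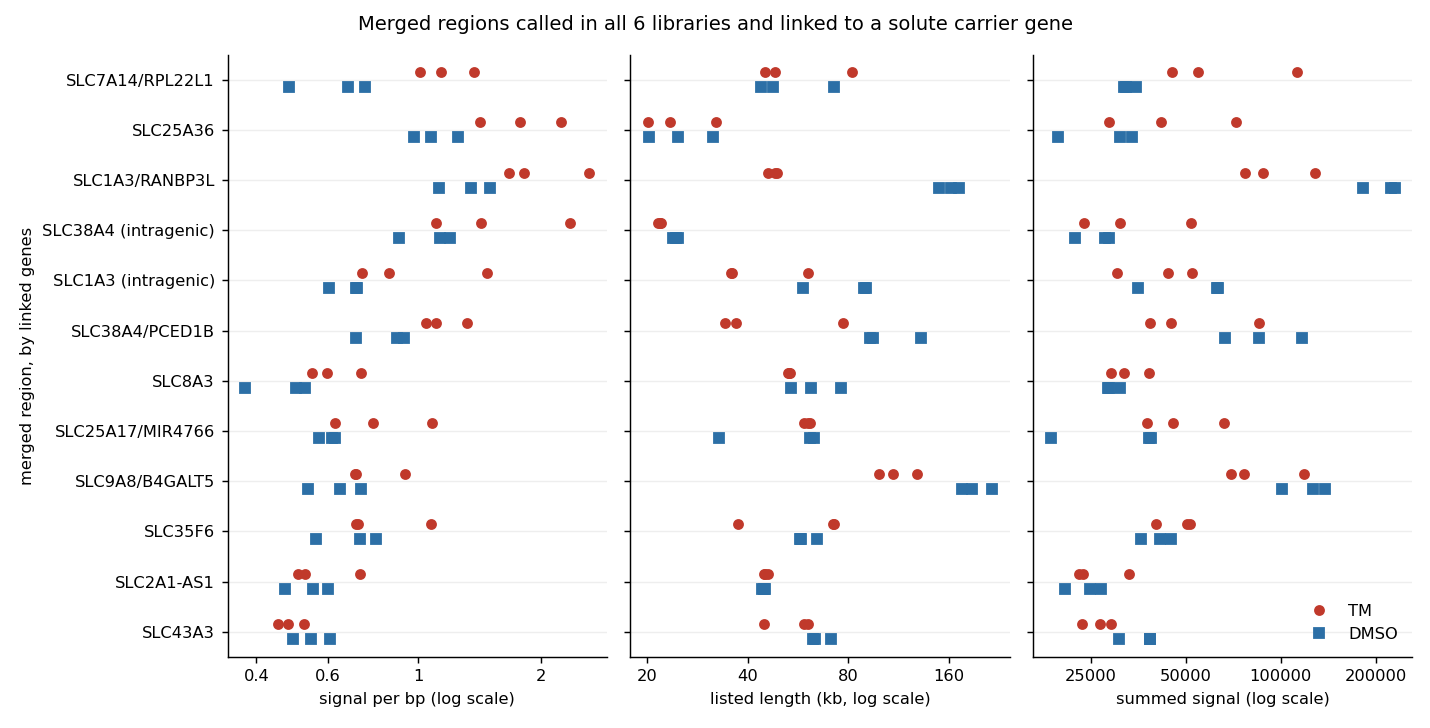
Signal per bp, listed length and summed signal of the 12 merged solute carrier regions called in all 6 libraries, each on a log axis, with TM as red circles above DMSO as blue squares, 1 point per library. Values are on the deposited scale, before centring. The SLC1A3/RANBP3L lengths of 46.0 to 48.9 kb in TM stand apart from 149 to 171 kb in DMSO, and the SLC7A14/RPL22L1 densities do not overlap.

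Over the 12 solute carrier regions called in all 6 libraries, centred density rose at 1 and fell at 1 (limma, adjusted p under 0.05), where 6.72% of 670 shared regions rose and 10.6% fell. Centred density was higher in every TM than in every DMSO library at 3 of the 12 (16.7% of the 670) and lower at 2 (21.5%). The median log2 difference was +0.06 for the 12 and -0.03 for all 670. Centring matters here, since as deposited the shared regions had a median log2 density 0.38 above that of DMSO in the TM libraries, and all density changes above are relative to that shift. Summed signal, centred in the same way, rose at 4 (SLC38A4, SLC7A14, SLC25A36 and SLC25A17) and fell at 3 (upstream SLC1A3, upstream SLC38A4 and SLC9A8). Over all shared regions, 18.7% rose and 13.7% fell. The 3 that fell were among the 4 with the greatest loss of length, the other being the intragenic SLC1A3 region.

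Length itself was lower in every TM than in every DMSO library at 6 of the 12, against 36.6% of all shared regions, and higher in every TM library at 0 (4.33%). The 6 were the upstream SLC1A3 region, both shared SLC38A4 regions, SLC9A8, SLC8A3 and SLC43A3. The number of stitched peaks was lower in every TM library at 7 of the 12, against 54.3%. The median log2 length difference was -0.21 for the 12 and -0.25 for all 670. The shortening of solute carrier SEs in TM was thus close to that of SEs at large, and no test of a difference was made.

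**Figure D5:**
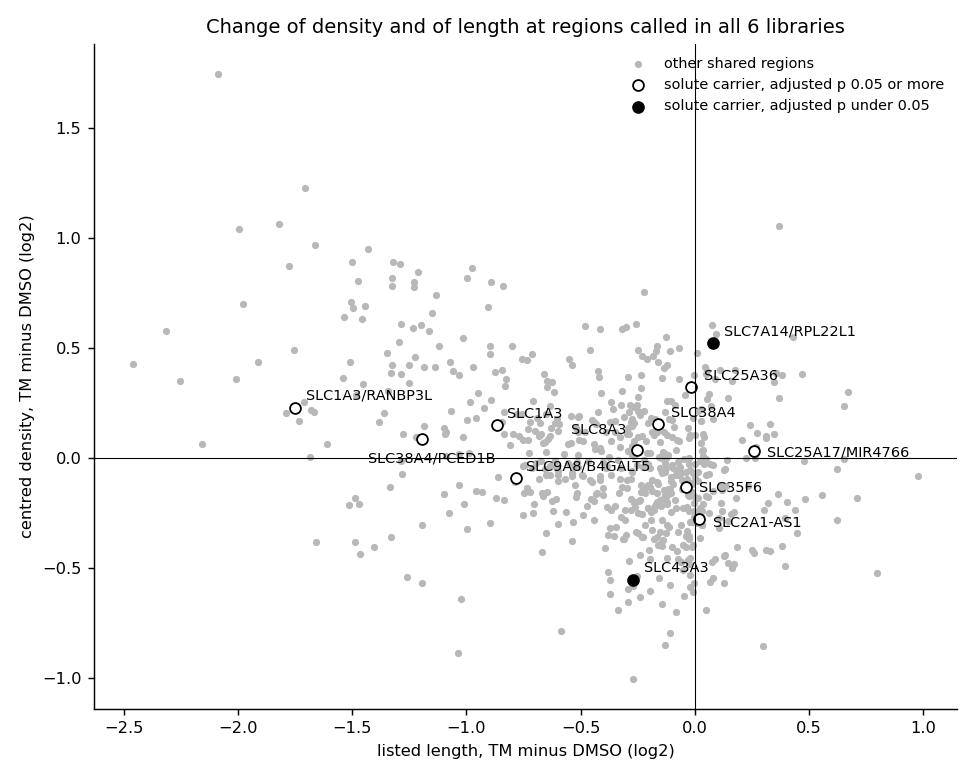
Difference in listed length (x axis, log2, TM minus DMSO) against difference in centred density (y axis, log2, TM minus DMSO) for 670 regions called in all 6 libraries. Grey points are other regions, open circles solute carrier regions and filled circles the 2 of them with adjusted p under 0.05. The SLC1A3/RANBP3L region lies far left at -1.75 with a density difference of +0.23, and SLC7A14/RPL22L1 and SLC43A3 lie highest and lowest of the 12.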

How the data were processed

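The authors profiled H3K27ac by ChIP-seq in 3 TM and 3 DMSO libraries of HepG2 cells. The groups follow the treatment in the labels and the replicate numbers the sample titles. An input library of control cells was not analysed here. The submitters' processing notes list CASAVA 1.4, mm9 and hg38 without saying what each was used for. Region names show stitched MACS peaks. The study describes the signals behind its ranking of SEs in TM-treated cells as normalized to input, but whether the deposited signals are is not stated. Caller versions, stitching distance and depth scaling were not given in the sources used here.

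The deposited signal of an SE equalled its length times a density per bp that was a whole number of steps of 0.0001 (100.0% of SEs, to within 0.001 of a step). Intron, intergenic and promoter labels refer to its midpoint. Midpoint and distance together give a start site, which lay within 5 kb of the GRCh38 one for only 11.4% of 7402 SEs, so coordinates of SEs are printed as deposited and belong to a build that is not named. Promoter sequences, gene names and counts of solute carrier genes came from RefSeq (GRCh38.p14).

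SEs sharing at least 1 bp were merged across libraries, and signal and length were summed per library. Only listed SEs have values, so absence means below a threshold. In the 670 regions that every library called, log2 density was centred on the library median and fitted in R 4.3.3 with the trend option of limma 3.58.1 and Benjamini-Hochberg adjustment over all regions and a threshold of 0.05. On simulated data for these regions, 72% of changes of 0.5 on the log2 scale, 95% of changes of 1 and 0.851% of unchanged regions were called. Log2 summed signal was centred and fitted in the same way as density. Lengths were compared by exact permutation tests (scipy 1.17.1). Tables were made with Python 3.11.15, pandas 2.3.3 and numpy 2.4.6, and plots with matplotlib 3.10.9.

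The members, classes, marker lists and tests were chosen with earlier results of these data known, and no test was run over the member list. Classes follow the family number. Values are named for every gene linked in 3 libraries of only 1 group, every region called in all 6 libraries, the strongest, longest and densest SE, and up to 4 further genes per class by number of libraries and then mean signal. Alternatives were other centrings, summed signal, other overlaps, stricter lists, links by name or within 100 kb, no trend, a replicate block, regions called by at least 2 libraries per group, and each library left out in turn.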

Additional observations from a re-analysis of the deposited data

How the results depend on the processing

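For the 12 solute carrier regions called in all 6 libraries, 122 results kept direction and side of the threshold, 8 lost the call, 9 gained it and 17 changed direction. Only 2 of the 17 passed the threshold, upstream SLC1A3 (-1.14) and upstream SLC38A4 (-0.72), both with summed signal in place of density. With summed signal, intragenic SLC1A3 (-0.33), SLC2A1-AS1 (+0.13) and SLC35F6 (+0.22) also changed direction. Without centring SLC2A1-AS1 (+0.10), SLC35F6 (+0.25) and SLC9A8 (+0.29) did so, and centred on total signal the same genes (+0.13, +0.28 and +0.31). With 1 library left out in turn, values ranged from -0.018 to 0.28 for intragenic SLC38A4, -0.051 to 0.098 for SLC25A17 and -0.025 to 0.35 for intragenic SLC1A3, each lowest without TM 2. They ranged from -0.017 (without TM 3) to 0.24 for upstream SLC38A4, and from -0.056 (without TM 1) to 0.12 for SLC8A3, which was also below 0 without DMSO 2 (-0.023). SLC43A3 lost its call without centring (-0.17), centred on total signal (-0.15) and with summed signal (-0.43).

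Over the solute carrier regions, 1 rose and 1 fell. Without centring 1 rose and 0 fell, centred on total signal 6 rose and 0 fell, with summed signal 4 rose and 3 fell, and with at least 2 libraries per group 1 rose and 2 fell. Leaving out each library in turn gave 0 to 1 higher and 0 to 1 lower. Over all 670 shared regions, 45 rose and 71 fell. This became 133 and 1 without centring, 256 and 2 centred on total signal, 125 and 92 with summed signal, and 20 to 59 higher and 25 to 83 lower with each library left out, the lowest of both without DMSO 1. The cause was not tested. For TM and DMSO libraries of the same number, deviations correlated at -0.0080, -0.047 and -0.026. Libraries of different numbers gave -0.067 to 0.079. No pairing by number was seen, but correlations taken after centring cannot exclude one. With the replicate block, 46 rose and 49 fell over all regions and 1 and 1 among solute carriers, with no solute carrier call lost or gained.

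TM-only regions numbered 1, and 0 above the highest threshold. DMSO-only regions numbered 2, against 1 by linked gene, 0 above the highest threshold and 1 within 100 kb. Regions called in all 6 libraries numbered 12, against 7 by linked gene and 7 above the highest threshold. With each library left out these ranged from 1 to 2, 2 to 4 and 12 to 15. Unlisted regions have no value, depth is unknown, and a list threshold above the signal of the other group leaves absence without a direction.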
